A study of Mus musculus with 12 samples.

Results

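Layer 6b nuclei were picked out of single-nucleus RNA sequencing data of the mouse cortex at P21 by 4 marker genes, Nxph4, Cplx3, Ccn2 and Moxd1. A nucleus was taken when its UMIs (unique molecular identifiers, each counting 1 captured transcript) of these 4 genes summed to at least 3, when at least 2 of the 4 were detected, when it held at least 1 UMI of the glutamate transporter gene Slc17a7, none of Gad1 or Gad2, which make the inhibitory transmitter GABA, and at most 1 of Tshz2, a marker of layer 5 near-projecting neurons. Of 78743 deposited barcodes, 71914 passed limits of at most 12000 UMIs and 1% mitochondrial UMIs, and 66 of these met the rule. Excitatory nuclei, those with Slc17a7 and without Gad1 or Gad2, numbered 23296.

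The cortices came from 12 mice of the C57BL/6-based Myt1l S710fsX line, which carries a frameshift allele of the neuronal transcription factor MYT1L. There were 6 WT and 6 MYT1L Het animals, with 3 males and 3 females of each. The methods state that pups of both genotypes were injected at birth with AAV9 calling cards reagents, which express tdTomato, that animals came from several litters and were mostly littermates, and that all animals of this age shared 1 library batch. The labels do not tie animals to litters, so litter could not be a term in the tests.

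Layer 6b is the deepest and thinnest sheet of the neocortex, lying against the white matter. Many of its neurons are survivors of the subplate, a transient layer of the fetal cortex whose neurons are among the first to be born and which guides incoming thalamic axons. In the adult, layer 6b neurons are known for responding to wake-promoting neuromodulators, and part of them send axons to higher-order thalamus.

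The 4 marker genes have known roles at synapses and in the matrix. Nxph4 encodes a neurexophilin, a secreted ligand of neurexins. Cplx3 encodes a complexin, which controls fusion of synaptic vesicles. Ccn2 encodes connective tissue growth factor, a matricellular protein, and Moxd1 a protein related to dopamine beta-hydroxylase. In the mm10 annotation, Moxd1 lies at chr10:24223517-24302790 and Ccn2 292652 bases downstream at chr10:24595442-24598683. Nxph4 lies at chr10:127525473-127534559, and Cplx3 at chr9:57599992-57606281. All 4 are protein-coding.

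The promoters of 3 genes are shown because the results turn on them. Moxd1 was the marker found in most of the nuclei, Kcnab1 had the largest log2 fold change among the named genes higher than in layer 6 corticothalamic nuclei, and Lrrc4c was the one gene called between the genotypes. Each is the 250 bases before a RefSeq start on the plus strand of GRCm38.p6, at chr10:24223267-24223516 for Moxd1, at chr3:64948962-64949211 for the first of 3 starts of Kcnab1, which lies upstream of the GENCODE record matched to its identifier, and at chr2:96317919-96318168 for Lrrc4c. Capitals mark AAAGTT, the core of the sequence bound by MYT1 family proteins, read on both strands.
Moxd1: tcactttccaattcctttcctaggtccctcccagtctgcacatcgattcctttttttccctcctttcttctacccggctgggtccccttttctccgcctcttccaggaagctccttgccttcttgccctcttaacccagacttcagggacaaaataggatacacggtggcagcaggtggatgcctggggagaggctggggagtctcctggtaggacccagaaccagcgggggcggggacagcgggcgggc
Kcnab1: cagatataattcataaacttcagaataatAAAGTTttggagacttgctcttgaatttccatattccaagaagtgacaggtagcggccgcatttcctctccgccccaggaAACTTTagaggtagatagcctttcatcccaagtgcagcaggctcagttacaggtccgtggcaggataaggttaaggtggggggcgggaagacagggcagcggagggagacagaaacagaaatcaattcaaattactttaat
Lrrc4c: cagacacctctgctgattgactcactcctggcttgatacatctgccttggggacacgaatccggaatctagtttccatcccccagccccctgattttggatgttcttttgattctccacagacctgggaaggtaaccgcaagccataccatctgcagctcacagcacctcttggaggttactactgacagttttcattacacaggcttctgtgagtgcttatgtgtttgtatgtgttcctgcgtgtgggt
The letters occurred at 2 places in this Kcnab1 promoter, at 0 in those of the other 2 Kcnab1 starts, and at 0 in the windows of Moxd1 and Lrrc4c. Of 32851 promoters of the same length, 12.4% held them.

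Moxd1 and Ccn2 carried most of the selection. Moxd1 was detected in 59 of the 66 nuclei (89.4%) and Ccn2 in 56 (84.8%), whereas Nxph4 and Cplx3 were each detected in 15 (22.7%). In pooled nuclei Moxd1 stood at 328 CPM, the usual scaling of a gene's UMIs to the total of all UMIs, against 3.0 CPM in the other excitatory nuclei, and Ccn2 at 168 against 1.81 CPM. Nxph4 and Cplx3 both stood at 28.1 CPM, against 0.283 and 0.424 CPM. These values chose the nuclei and are given as a description.

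The markers were found in 7 combinations. Ccn2 with Moxd1 alone accounted for 36 nuclei, and 13 nuclei held 3 of the 4 genes, 7 with Nxph4, Ccn2 and Moxd1 and 6 with Cplx3, Ccn2 and Moxd1. Nxph4 and Cplx3 were not found together in any nucleus. The marker sum had a median of 4 UMIs and reached 12.

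The rule left nuclei on both sides of its limit with much of the same genes. In the 23 nuclei with a marker sum from 3 to under 4, Tmem163 stood at 561 CPM and Inpp4b at 2510 CPM. The 22 nuclei just outside, with 2 marker genes and a sum under 3, had 415 CPM of Tmem163 and 2940 CPM of Inpp4b. A further 40 nuclei had a sum of 3 or more from a single marker, with 417 CPM of Tmem163 and 2610 CPM of Inpp4b. These 40 also held 99.8 CPM of the claustrum gene Synpr, against 5.52 CPM in the 23 nuclei just inside. Another 467 nuclei had 1 marker and a sum under 3, with lower levels of 267 CPM of Tmem163 and 1050 CPM of Inpp4b. In 19370 otherwise eligible nuclei without any of the 4 markers, Tmem163 stood at 50.3 CPM and Inpp4b at 390 CPM.

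The nuclei were deep. Their median was 8956 UMIs and 3047 genes, against 5874 UMIs in 1908 layer 6 corticothalamic (CT) nuclei and 6255 in 1348 layer 5 near-projecting (NP) nuclei. These comparison nuclei were excitatory, were selected by Syt6, Foxp2, Rprm and Sla or by Tshz2, Vwc2l, Trpc7 and Slc17a8, and held no UMI of the 4 layer 6b markers. No barcode was shared between libraries, and 1 of the 66 nuclei (1.52%) was among the highest Scrublet doublet scores. When each nucleus was thinned to 3000 UMIs, 8 nuclei met the rule.

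Markers of inhibitory neurons and glia were low or at 0 in most animals, with 1 library apart, while genes of other excitatory types were found. Of 9 inhibitory neuron markers, Gad1 and Gad2 were at 0 by the rule, and Slc32a1, Sst, Pvalb and Vip were at 0 as well. The summed level of this list ran from 0 to 2280 CPM in WT and from 0 to 51.5 CPM in Het animals, against a median of 147 CPM in layer 6 CT nuclei. The highest value came from WT male 2, whose 3 nuclei held 2240 CPM of Erbb4, 869 CPM of Nxph1 and 1100 CPM of Kcnc2, while the other 11 animals had at most 131, 61.5 and 31.5 CPM. Without this animal, 311 genes were called between layer 6b and layer 6 CT nuclei in place of 290, and 1 gene between the genotypes as before. Oligodendrocyte markers, 5 of 6 detected and Mobp at 0, summed to 0 to 228 CPM in WT and 0 to 84.3 CPM in Het animals, against a median of 17400 CPM in nuclei selected as oligodendrocytes. Of 5 astrocyte markers, only Slc1a2, which neurons also transcribe, was detected. Microglia markers summed to at most 56.2 CPM and vascular markers to at most 20.1 CPM in any animal. All 9 upper layer and layer 4/5 intratelencephalic (IT) genes were detected, with a summed level of 808 to 1850 CPM in WT and 1070 to 3090 CPM in Het animals, against a median of 559 CPM in layer 6 CT nuclei. Of the 891 UMIs of this list, 765.3 were of Cdh13 and 104 of Kcnh5, while Cux2 had 5 and Rorb 5.8. All 8 layer 5 NP genes were detected too, with a median sum of 263 CPM in WT and 192 CPM in Het animals and a highest value of 911 CPM in a WT animal, against 86.2 CPM. Of 7 layer 6 IT and claustrum genes, 4 were detected and Oprk1, Car3 and Osr1 were at 0, with 142 to 718 CPM in WT and 103 to 362 CPM in Het animals, against 187 CPM. Sulf1 gave 129.5 of the 138 UMIs of this list. The part of genes of other cell types in the results below was not tested.

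Genes known from layer 6b that were not used in the selection were read beside the label. The list was chosen with earlier results of these data known, so its counts are no independent check. At an equal depth of 3000 UMIs per nucleus, 8 of 12 such markers were found in a larger share of layer 6b than of layer 6 CT nuclei, and 4 were not: Col8a1, Hsd17b2, Hcrtr2 and Zfpm2. Of the 12, 6 were abundant enough to be tested across the 12 animals against layer 6 CT nuclei, and 5 were higher in layer 6b nuclei: Tmem163, Svil, Cdh10, Rxfp1 and Inpp4b. Zfpm2, a cofactor of GATA factors, was not called, since its log2 fold change of -0.92 (edgeR adjusted p = 1.13e-08) stayed within the limit of 1, but it was called lower without the filter on low counts (-1.47, edgeR adjusted p = 8.16e-23). Markers scarce in both types could not be tested, and several passed the filter through layer 6b, so the count of 5 is no support for the label. Of all 2595 tested genes, 5.36% were called higher and 5.82% lower in layer 6b nuclei, and their median log2 fold change was -0.04. A call here is an adjusted p under 0.05 with a log2 fold change over 1.

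Tmem163, which encodes a zinc transporter, had the largest log2 fold change of these 5. Its level in layer 6b nuclei had a lowest value of 239, a median of 584 and a highest value of 728 CPM over the 12 animals, and in layer 6 CT nuclei 6.64, 16.9 and 28.0 CPM. The ranges did not overlap, and the log2 fold change was 5.11 (SE 0.19, edgeR adjusted p = 2.83e-31). Cdh10, a cadherin, ranged from 592 to 1670 CPM with a median of 1150 CPM, against 53.7 to 156 CPM (log2 fold change 3.76, SE 0.15, edgeR adjusted p = 9.28e-31). Rxfp1, the receptor of relaxin, ranged from 124 to 424 CPM around a median of 230 CPM, against 5.37 to 55.9 CPM (log2 fold change 3.27, SE 0.21, edgeR adjusted p = 6.42e-20).

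Svil and Inpp4b varied more between animals. Svil, which encodes the actin-binding protein supervillin, ran from 63.3 to 1260 CPM in layer 6b nuclei and from 0 to 76.8 CPM in layer 6 CT nuclei, so the ranges overlapped, although each of the 12 animals had more in its layer 6b nuclei. Inpp4b, a phosphoinositide phosphatase, ran from 518 to 4680 CPM with a median of 2860 CPM, against 288 to 669 CPM. Its log2 fold change was 2.62 (SE 0.27, edgeR adjusted p = 7.07e-06).

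Detection was also compared at equal depth. At 3000 UMIs per nucleus, a depth that 65 layer 6b and 1758 layer 6 CT nuclei reached, Tmem163 was found in 75.4% of layer 6b and 3.01% of layer 6 CT nuclei, and Rxfp1 in 43.1% and 5.92%. Without thinning these shares were 95.5% and 6.66% for Tmem163 and 74.2% and 9.17% for Rxfp1. Oligodendrocyte nuclei, at a median of 2659 UMIs, held Tmem163 in 64.4%, Cdh10 in 76.2% and Rxfp1 in 0.981%. Tmem163 is a known gene of that lineage. Nr4a2, an orphan nuclear receptor of the subplate lineage, was found in 30.8% and 2.50% after thinning and in 53.0% and 4.93% before. Lpar1, a lysophosphatidic acid receptor, was found in 29.2% and 1.25% after thinning, and in 55.1% of oligodendrocyte nuclei. Nr4a2 and Lpar1 were too sparse for the test, at mean levels of 116 and 89.5 CPM against 12.1 and 4.65 CPM, and each was higher in 11 of 12 animals.

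**Figure D1:**
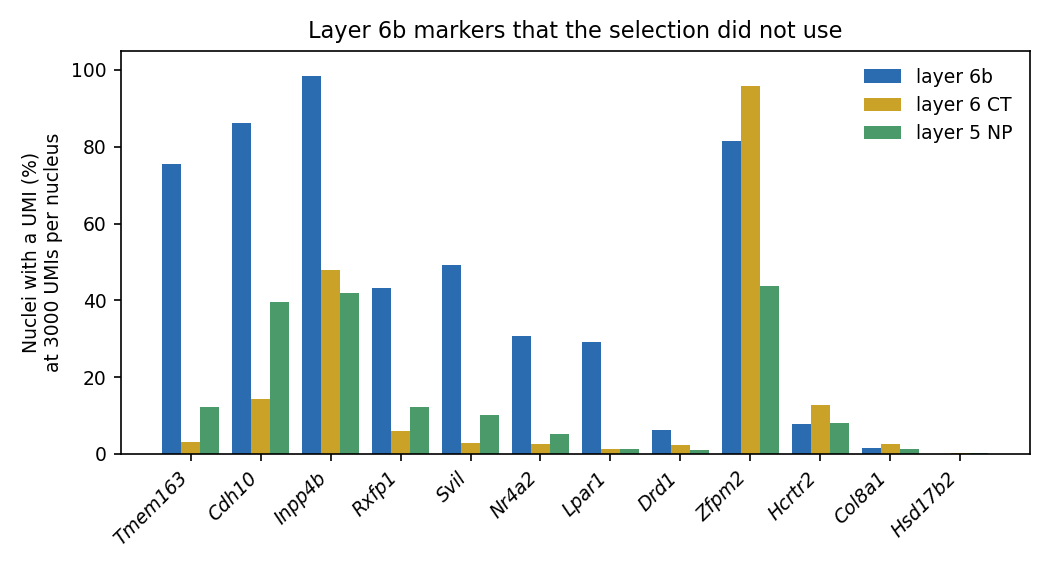
Percent of nuclei (y axis) with at least 1 UMI of each of 12 layer 6b markers that the selection did not use (x axis), after thinning every nucleus to 3000 UMIs, in layer 6b (blue), layer 6 CT (yellow) and layer 5 NP (green) nuclei. Tmem163, Rxfp1, Svil, Nr4a2 and Lpar1 stand far above both other types in layer 6b nuclei, while Zfpm2 is found in 81.5% of layer 6b and 95.9% of layer 6 CT nuclei and Hcrtr2, Col8a1 and Hsd17b2 are near or under the other types.

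Other markers of layer 6b were scarce. Hcrtr2, a receptor of the wake-promoting peptide orexin, was found in 7 of the 66 nuclei (10.6%) and in 18.4% of layer 6 CT nuclei, and after thinning in 7.69% and 12.8%. Drd1, a dopamine receptor, was found in 11 nuclei (16.7%, exact 95% interval 8.62% to 27.9%) against 3.93% of layer 6 CT nuclei, and after thinning in 6.15% and 2.33%. Col8a1 was found in 5 nuclei and Hsd17b2 in 0 of 66. With 3 counts as the floor, this allows a share of nuclei with a UMI of Hsd17b2 of up to 4.55%, and the exact 95% interval reaches 5.44%. Of the genes that mark subtypes of layer 6b, Crh and P2ry12 each had UMIs in 2 nuclei and Mup5 in none.

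The comparison with layer 6 CT nuclei asked what separates layer 6b from the neighbouring layer. Animals were kept as blocks, since both cell types came from each. Of 2595 genes tested, 139 were higher and 151 lower in layer 6b nuclei. The genes used to select either type were left out of the test. A gene passed the filter on low values through the type in which it was high, so the sparse genes could be tested only where one of the types expressed them. Without this filter the median log2 fold change of the same genes moved by -0.51, so the gene lists are also counted without it, over the members tested with it.

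Kcnab1, the beta subunit of voltage-gated potassium channels (chr3:65109384-65378223), had the largest log2 fold change of the named genes on the higher side. In layer 6b nuclei it had a lowest level of 1650, a median of 2200 and a highest level of 3400 CPM, and in layer 6 CT nuclei 16.7, 57.3 and 111 CPM. The groups did not overlap and the log2 fold change was 5.48 (SE 0.20, edgeR adjusted p = 7.23e-18). Col19a1, which encodes a fibril-associated collagen, followed with 228 to 1550 CPM against 0 to 27.5 CPM (log2 fold change 5.16, SE 0.21, edgeR adjusted p = 4.09e-28).

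Other genes were named on the higher side. Nhs, of which mutations cause Nance-Horan syndrome, had a log2 fold change of 4.47, and Cntn6, a contactin of the immunoglobulin family, one of 3.67. Plcl1, a phospholipase C-like protein without catalytic activity, was higher by 3.66 on the log2 scale. Cacna2d3, an auxiliary calcium channel subunit, and Kirrel3, a synaptic adhesion molecule, had log2 fold changes of 3.42 and 3.31. With Tmem163, Svil and Cdh10, these made up the 10 named genes, which were chosen among those higher in layer 6b nuclei of all 12 animals.

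On the lower side, Iqgap2, a scaffold protein of the cytoskeleton, was almost absent from layer 6b nuclei. Its level was 240 to 417 CPM in layer 6 CT nuclei, and 2.5 UMIs were counted in all layer 6b nuclei together, so the level was 26.8 to 800 times lower by the 95% counting interval. Cpa6, a carboxypeptidase, had 1.5 UMIs in layer 6b nuclei and 61.8 to 149 CPM in layer 6 CT nuclei, with an interval of 8.32 to 249 times. Of these UMIs, WT male 2 held 2 of Iqgap2 and all 1.5 of Cpa6. Without that animal, with 3 counts over the group as the floor, the levels were at least 60.9-fold lower for Iqgap2 and at least 19.8-fold lower for Cpa6. Col5a1, a chain of fibrillar collagen, fell to 0 to 45.6 CPM from 150 to 256 CPM (log2 fold change -4.46, SE 0.38, edgeR adjusted p = 1.56e-15).

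The other named genes, likewise chosen among those lower in all 12 animals, follow. Sorcs1, a sorting receptor, had a log2 fold change of -4.45, and Egfem1 of -4.02. Ephb1, an ephrin receptor, ran from 0 to 98.3 CPM in layer 6b nuclei and from 404 to 655 CPM in layer 6 CT nuclei (log2 fold change -3.63). Clstn2, a calsyntenin of the postsynaptic membrane, and Mtcl1, a microtubule crosslinker, had log2 fold changes of -3.57 and -3.49. Meis2, a homeodomain transcription factor, and Me3, a mitochondrial malic enzyme, had -3.33 and -3.27.

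**Figure D2:**
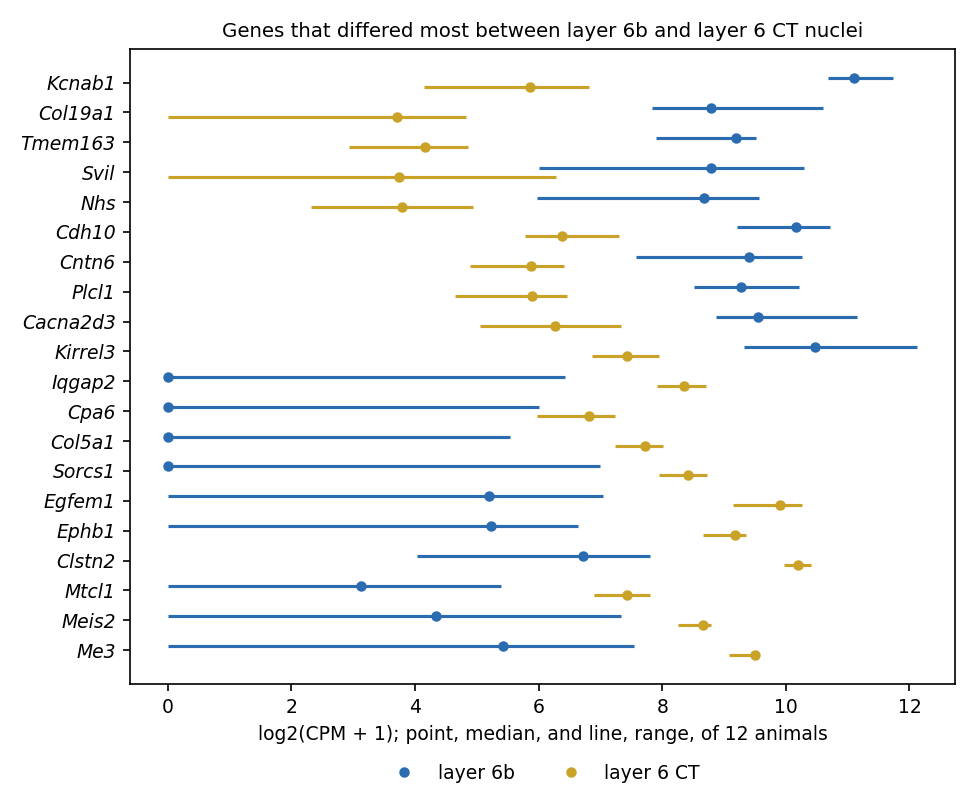
Level of the 20 named genes of the layer 6 CT comparison (y axis, 10 higher and 10 lower in layer 6b nuclei) as log2(CPM + 1) (x axis), with the median (point) and range (line) of the 12 animals in layer 6b (blue) and layer 6 CT (yellow) nuclei. The Kcnab1 ranges, 1650 to 3400 and 16.7 to 111 CPM, lie far apart, and Iqgap2, Cpa6, Col5a1 and Sorcs1 had a median of 0 in layer 6b nuclei.

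Of 10 layer 6 CT genes, 6 were not used in the selection, 3 of these were tested and none passed the fold limit: Hs3st4, a heparan sulfate sulfotransferase, with a mean of 4450 against 5010 CPM (log2 fold change -0.14), Tle4, a corepressor, with 792 against 660 CPM (0.35), and Thsd7b with 748 against 977 CPM (-0.41). Crym, a thyroid hormone binding protein too sparse for the test, had 2 UMIs in layer 6b nuclei against a mean of 61.6 CPM in layer 6 CT nuclei, 4.71 to 141 times lower by the counting interval. Tbr1 and Ntsr1, also not tested, had means of 33.3 against 44.1 CPM and 6.48 against 8.81 CPM. Foxp2 is a forkhead factor used to select layer 6 CT nuclei. Without thinning, Foxp2 was found in 31.8% of layer 6b, 35.6% of layer 5 NP and 11.2% of oligodendrocyte nuclei. After thinning to equal depth, Foxp2 was found in 15.4% of layer 6b, 23.6% of layer 5 NP and 13.1% of oligodendrocyte nuclei. Among 23 cortical layer transcription factors, 14 were tested, beside the same 5.36% higher and 5.82% lower of all tested genes. Lmo3 was higher (log2 fold change 1.23) and Foxp1 and Zeb2 were lower (-1.23 and -2.28). Sox5, a factor of deep-layer identity, had a log2 fold change of -0.49, within the limit. Without the filter 0 of the 14 were higher and 5 lower, as Lmo3 had 0.73 and Sox5 -1.03.

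Potassium channel genes split between the cell types. Of 35 in the list, 24 were tested, 7 were higher and 4 lower, beside 5.36% and 5.82% of all tested genes, with a median log2 fold change of 0.06. Besides Kcnab1, the higher ones included Kcnn3, a calcium-activated channel, with 80.5 to 277 CPM against 23.0 to 52.4 CPM (log2 fold change 2.64), and Kcnip4, a subunit of A-type channels, with a mean of 9840 against 2700 CPM (1.86). Kcnt2, Kcnb2, Kcnmb4 and Kcnh5 were the others, and these 4 calls ended without the filter (log2 fold changes of 0.66, 0.88, 0.91 and 0.61). Kcnq5, a channel of the M-current, was lower at 60.9 against 454 CPM (log2 fold change -2.96), as were Kcnh1 (-2.65), Kcnn2 (-1.99) and Kcnk1 (-1.14). Without the filter 3 were higher and 8 lower, with Kcnd2, Kcnh7, Kcnd3 and Kcnma1 called lower as well.

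Axon guidance and adhesion genes likewise moved both ways. Of 51, 38 were tested, 12 were higher and 11 lower, again beside 5.36% and 5.82% of all tested genes, and the median was 0.01. Epha3 and Epha5, ephrin receptors, were higher with log2 fold changes of 2.68 and 1.69, whereas Epha4, Ephb1 and Ephb2 were lower with -1.50, -3.63 and -1.22. Unc5c, a netrin receptor, Slit2, a repellent ligand, and Robo2, its receptor, were higher (2.34, 2.11 and 1.53), and Nrp1, a semaphorin receptor, and Slit3 were lower (-2.67 and -2.21). Cdh18, Cdh13, Sdk1, Cntn5 and Unc5d were also higher, while Cdh9, Cdh12, Efna5, Slit1, Plxna4 and Lrrc4c were also lower. Without the filter 7 were higher and 12 lower, and the higher calls of Robo2, Cdh18, Cdh13, Cntn5 and Unc5d ended.

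Receptor genes for transmitters were counted beside the same 5.36% higher and 5.82% lower of all tested genes. Of 12 GABA-A receptor subunits, 10 were tested, Gabra5, the subunit of extrasynaptic receptors, was higher (log2 fold change 1.33) and Gabra3 and Gabrg3 were lower (-1.54 and -1.46). Of 18 ionotropic glutamate receptor subunits, 13 were tested, 0 were higher and 2 lower, among them Grin2a (-1.04). Of 7 metabotropic receptors, 5 were tested, 0 were higher and 2 lower, among them Grm8 (-2.87). Among 42 neuromodulator receptors 3 could be tested, and Oprm1, the mu opioid receptor, was higher with a mean of 152 against 48.2 CPM (log2 fold change 1.45, edgeR adjusted p = 3.61e-06). Htr2a, a serotonin receptor under the filter, had a mean of 116 against 9.56 CPM and was higher in 10 of 12 animals. Without the filter the calls of Gabra5 (log2 fold change 0.82) and Oprm1 (0.94) ended, and the lists gave 0 higher and 6 lower GABA-A subunits, 0 and 6 ionotropic glutamate receptor subunits, 0 and 2 metabotropic receptors and 0 and 1 neuromodulator receptors. None of the 16 neuropeptide genes was abundant enough to be tested.

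The comparison with layer 5 NP nuclei placed layer 6b beside another small deep-layer type. Of 3531 genes tested, 157 (4.45%) were higher and 305 (8.64%) lower in layer 6b nuclei, and the median log2 fold change over all genes was -0.07. Of the 12 layer 6b markers outside the rule, 10 were found in a larger share of layer 6b than of layer 5 NP nuclei at equal depth, Col8a1 by 1.54% against 1.38%, and Hcrtr2 and Hsd17b2 were not. Of 8 layer 5 NP genes, 4 were tested and all 4 were lower, Etv1, Htr2c, Lypd1 and Nxph1. None of the 8 could be tested against layer 6 CT nuclei. The 4 thus passed the filter through layer 5 NP nuclei, and their count is no support for the label. The Nxph1 level in layer 6b nuclei came mainly from WT male 2.

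Col19a1 had the largest log2 fold change of the named higher genes, with 228 to 1550 CPM against at most 29.3 CPM in layer 5 NP nuclei (log2 fold change 4.69, SE 0.21, edgeR adjusted p = 5.03e-35). Sdk1, an adhesion molecule of the sidekick family, ran from 479 to 3630 CPM with a median of 2420 CPM, against 49.0 to 296 CPM (log2 fold change 3.50, SE 0.15). Nfia, a nuclear factor I protein, ran from 239 to 912 CPM against 53.3 to 139 CPM (log2 fold change 2.94, SE 0.16). The Col19a1, Sdk1 and Nfia ranges did not overlap between the cell types.

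Sulf1, a heparan sulfate sulfatase, and Svil had log2 fold changes of 3.56 and 3.34. Tmem163, Tmem132d, Inpp4b and Vxn had 3.00, 2.95, 2.81 and 2.64. Of the layer 6 CT genes, 4 were tested here and Thsd7b, Tle4 and Hs3st4 were higher, by 1.52, 1.41 and 1.31 on the log2 scale, beside 4.45% of all tested genes. Without the filter, where the median of the same genes moved by -0.44, Thsd7b had 1.07, and the calls of Tle4 (0.95) and Hs3st4 (0.85) ended. Foxp2, the other gene tested, stood at 81.6 against 144 CPM in pooled nuclei. It was not called with the filter and was called lower without it.

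Of the genes lower than in layer 5 NP nuclei, several were near 0 in layer 6b. Slc24a4, a sodium and calcium exchanger, had 0 UMIs in all 66 nuclei and 41.8 to 81.1 CPM in layer 5 NP nuclei, at least 11.5-fold lower when 3 counts over the group are taken as the floor. Rmst, a long noncoding RNA, had 1.5 UMIs in layer 6b nuclei against 278 to 401 CPM, an interval of 27.7 to 826 times lower. Tafa1, a secreted chemokine-like protein, had 0 to 42.3 CPM against 546 to 1650 CPM (log2 fold change -6.92, SE 0.32, edgeR adjusted p = 8.4e-34).

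Cdh20, Igsf11, Pbx3, Sntb1, Ntng1, Bicc1 and Cemip, the rest of the 10, each had at most 3 UMIs in layer 6b nuclei, and the 1 UMI of Cemip came from WT male 2. Ntng1, which encodes netrin-G1, stood at 132 to 419 CPM in layer 5 NP nuclei and was 14.9 to 211 times lower in layer 6b by the counting interval. Kcnq5 was lower than in either comparison type, with 60.9 CPM against 1870 CPM in layer 5 NP nuclei (log2 fold change -5.06).

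**Figure D3:**
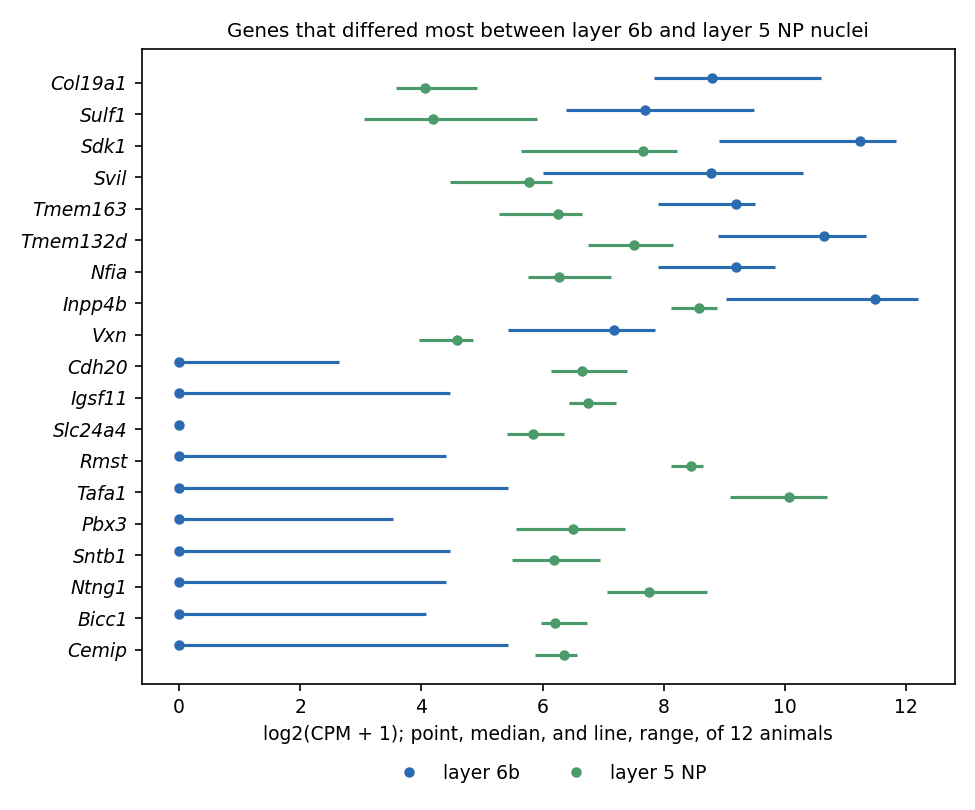
Level of 19 genes named in the layer 5 NP comparison (y axis) as log2(CPM + 1) (x axis), with the median (point) and range (line) of the 12 animals in layer 6b (blue) and layer 5 NP (green) nuclei. The 9 upper genes stand higher in layer 6b nuclei, and the 10 lower genes, from Cdh20 to Cemip, had a median of 0 there.

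The share of layer 6b nuclei was compared between genotypes over animals. In WT animals it was lowest at 0.168%, with a median of 0.219% and a highest value of 0.453% of excitatory nuclei, and in Het animals 0.110%, 0.331% and 0.447%. The groups overlapped along nearly their whole range. The means were 0.254% ± 0.110 (SD, n = 6) and 0.299% ± 0.125 (SD, n = 6), a difference of 0.0451 percentage points (exact permutation test, two-sided, p = 0.511). Each share rested on 2 to 10 nuclei, and the exact 95% intervals of single animals, which cover counting error only, reached from 0.0133% to 0.891%. A difference in share was not detectable at this depth. By sex, males ran from 0.168% to 0.292% in WT and from 0.298% to 0.447% in Het animals, and females from 0.185% to 0.453% and from 0.110% to 0.378%. The direction of the small difference turned with a looser marker rule and with lower UMI limits.

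**Figure D4:**
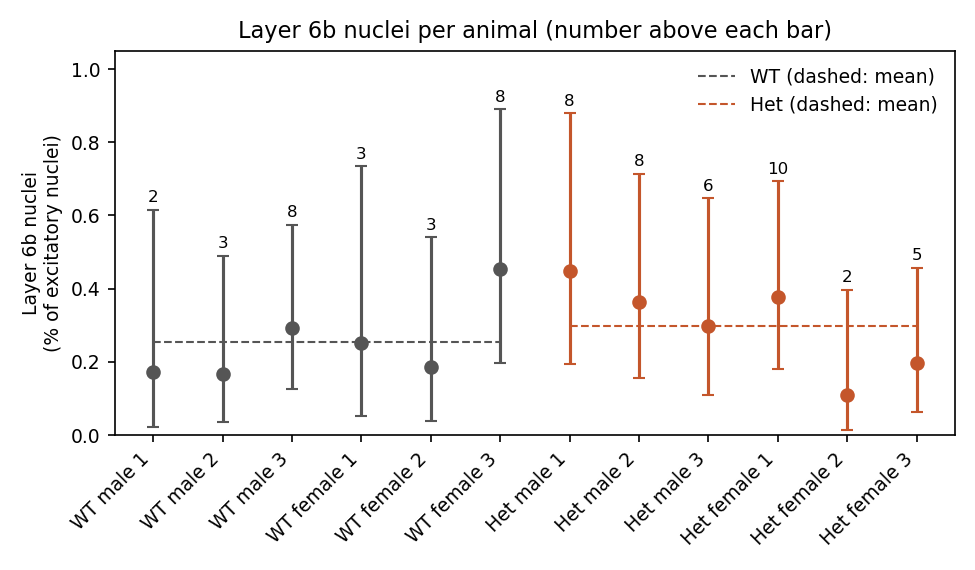
Layer 6b nuclei as a percent of excitatory nuclei (y axis) in each of the 12 animals (x axis), WT in grey and Het in orange, with exact 95% binomial intervals as bars, the number of layer 6b nuclei above each bar and the group mean as a dashed line. The intervals of all animals overlap, and the means are 0.254% and 0.299%.

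Gene expression in layer 6b nuclei was compared between Het and WT on counts summed per animal. The summed nuclei held between 8361 and 95093 UMIs per animal, and 770 genes were abundant enough to be tested. Only 1 gene was called (0.13% of those tested), at an adjusted p under 0.05 and a log2 fold change over 0.2. Of the 770, 34 had an unadjusted p under 0.05, a smaller share than the 0.05 that chance alone would give. DESeq2 called 1 gene as well.

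Myt1l itself (chr12:29528384-29923213) was not called. Its level in WT animals was lowest at 727, with a median of 973 and a highest value of 1960 CPM, and in Het animals 1140, 1360 and 1730 CPM. The log2 fold change was 0.20 (SE 0.22, edgeR adjusted p = 0.985). The level in Het animals was thus not lower, and it was not used as a check of the genotype labels.

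The gene called was Lrrc4c (chr2:96318169-97631666), which encodes the netrin-G ligand NGL-1, a postsynaptic adhesion molecule that shapes excitatory synapses. It was lower in Het animals. Its level was 598, 723 and 697 CPM in the WT males, 580, 735 and 866 CPM in the WT females, 438, 323 and 250 CPM in the Het males and 295, 91.2 and 197 CPM in the Het females. All 6 Het animals lay below all 6 WT animals. The means were 700 ± 104 CPM (SD, n = 6) and 266 ± 118 CPM (SD, n = 6), and the log2 fold change was -1.32 (SE 0.25, edgeR adjusted p = 0.0207).

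The alternatives for Lrrc4c used the same or overlapping nuclei, and in the main set every Het animal lay below every WT animal. A kept direction is thus no independent support. The direction of the Lrrc4c difference held under all 21 alternatives that could test it, with log2 fold changes from -1.70 to -0.87, but the call did not. The adjusted p ran from 0.00123 to 0.597 over them, and leaving out 1 animal ended the call in 7 of 12 cases, with adjusted p from 0.0108 to 0.131 and log2 fold changes from -1.49 to -1.24. With a looser rule, a marker sum of 2 from 1 marker or more, which took 207 nuclei, the log2 fold change was -0.87 (edgeR adjusted p = 0.465). The calls lost were those without WT male 3, WT female 2, WT female 3, Het male 2, Het male 3, Het female 1 or Het female 3. Het female 2, with 2 nuclei, gave 1 UMI of Lrrc4c, and WT male 1, also with 2, gave 5.

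Lrrc4c was lower in layer 6 CT nuclei of the same animals too. There it ran from 1320 to 1650 CPM in WT and from 1160 to 1280 CPM in Het animals, again without overlap, with a log2 fold change of -0.33 (SE 0.07, edgeR adjusted p = 0.0116). In those nuclei 37 of 7622 genes (0.485%) were called. The difference between the 2 cell types in the Lrrc4c change had an unadjusted p of 0.00124 and an edgeR adjusted p of 0.626. Over all 2595 genes edgeR called 0 for such a difference with either normalization. Of these, 104 had an unadjusted p under 0.05, a smaller share than chance alone would give. Of 24 genes that the study singles out at this age, 12 were tested in layer 6b nuclei, with a median log2 fold change of -0.27 beside -0.03 over all 770 genes, and Lrrc4c alone was called, beside 0.13% of all genes. The study chose that list on these samples, so its direction is not independent evidence.

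**Figure D5:**
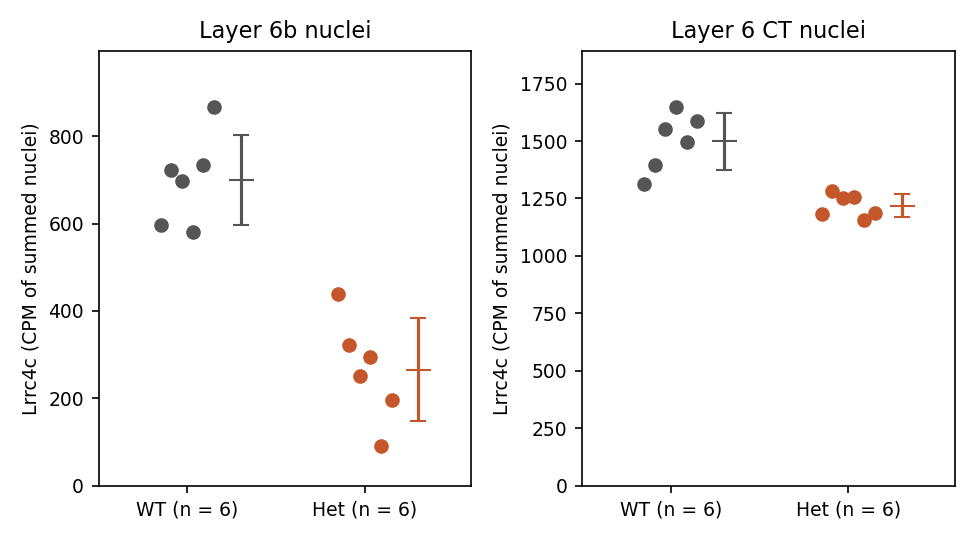
Lrrc4c level in CPM of summed nuclei (y axis) in WT (grey) and Het (orange) animals (x axis), in layer 6b nuclei on the left and layer 6 CT nuclei on the right, with each point 1 animal and the bars the mean and SD of 6 animals. In both panels all Het points lie under all WT points, with means of 700 and 266 CPM in layer 6b nuclei and 1500 and 1220 CPM in layer 6 CT nuclei.

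No other gene passed the test, and the 4 with the next smallest p on the lower side are given by their values. Ctnnd2, which encodes delta-catenin of the dendritic spine, ran from 3230 to 5410 CPM in WT and from 2550 to 3150 CPM in Het animals (log2 fold change -0.64, SE 0.17, edgeR adjusted p = 0.307), and the groups did not overlap. Rxfp1 ran from 221 to 424 CPM in WT and from 124 to 238 CPM in Het animals (log2 fold change -0.96, edgeR adjusted p = 0.307), and in layer 6 CT nuclei its log2 fold change was -1.18 (edgeR adjusted p = 0.111). Tmeff2, a transmembrane protein with follistatin domains, and Ppfia2, a presynaptic liprin, had log2 fold changes of -0.85 and -0.66.

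On the higher side 5 genes are given, none called. Kcnip3, a calcium sensor that binds potassium channels, ran from 127 to 359 CPM in WT and from 309 to 1000 CPM in Het animals (log2 fold change 1.13, SE 0.32, edgeR adjusted p = 0.307), against 0.54 in layer 6 CT nuclei (edgeR adjusted p = 0.0576). Asic2, an acid-sensing ion channel, had a log2 fold change of 0.61 and Homer1, a postsynaptic scaffold, of 0.95. Inpp4b had 0.74, and Gng12, a G protein gamma subunit, 0.96 here and 0.47 in layer 6 CT nuclei, where it was called (edgeR adjusted p = 0.0143). All 6 Het animals lay above the WT median for Kcnip3, Asic2, Inpp4b and Gng12, and 5 for Homer1. The uncalled genes given on either side were picked by smallest p, so the separation of their groups is no support for a difference.

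Genes that an earlier analysis of these data called in layer 6 CT nuclei were read in layer 6b nuclei beside their layer 6 CT values. Of 12, 8 were tested in layer 6b nuclei and none was called, with a median log2 fold change of 0.09 against -0.03 over all genes. Sdk2 had 0.44 (SE 0.31) in layer 6b and 0.43 (SE 0.08) in layer 6 CT nuclei, where it was called. Kcnt2 had 0.05 (SE 0.28) and -0.51 (SE 0.08), and Kcnip4 0.13 (SE 0.23) and -0.30 (SE 0.07). The standard errors in layer 6b nuclei were larger, and no difference between the cell types passed the test for Sdk2, Kcnt2 or Kcnip4.

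The other lists gave no further call between genotypes in layer 6b nuclei. The 6 tested of the 12 layer 6b markers had a median log2 fold change of -0.09, the 14 tested potassium channel genes 0.05, the 21 tested guidance and adhesion genes -0.23 with Lrrc4c as the only call, and the 11 tested ionotropic glutamate receptor subunits 0.13, beside a median of -0.03 and 0.13% called over all 770 genes. For an interaction of genotype and sex edgeR called 0 of 770 genes, and 2 when no filter on low counts was used. With the filter 29 had an unadjusted p under 0.05, a smaller share than chance alone would give.

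The marker genes of the rule are described by genotype without a test in the selected nuclei. Moxd1 had a median of 316 CPM in WT and 293 CPM in Het animals, and Ccn2 169 and 182 CPM, with overlapping groups. In all kept nuclei, where the rule had no part, 11 of 21627 genes (0.0509%) were called and none was a marker of the rule. Nxph4 there ran from 0.196 to 0.440 CPM in WT and from 0.376 to 0.601 CPM in Het animals (log2 fold change 0.65, SE 0.22, edgeR adjusted p = 0.376), with all 6 Het animals above the WT median. Cplx3, Ccn2 and Moxd1 had log2 fold changes of 0.58, 0.27 and -0.14 there, with edgeR adjusted p of 0.583, 0.677 and 0.578. The selected nuclei held a small part of these UMIs. In WT animals they held 6 of 49.17 UMIs of Nxph4, 5 of 70 of Cplx3, 36 of 333 of Ccn2 and 76 of 2613 of Moxd1. In Het animals they held 10 of 92.5, 11 of 123, 60 of 465.8 and 110.8 of 2778. The levels over all kept nuclei thus came mainly from nuclei outside the selection. In sums over all nuclei, more cells of a type and more RNA per cell cannot be told apart.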

How the data were processed

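Single-nucleus RNA was measured in the cortex of 12 mice at P21. Reads were aligned to mm10 by the authors in the ScaleRna workflow and nuclei picked with CellFinder, and the authors deposited 1 matrix per animal of expected counts, UMIs that are fractional where they fit several genes (92.6% of entries were whole). The submitters' processing notes name Seurat 4.3.0 and DESeq2 1.38.3. The authors' methods remove multiplets with DoubletFinder, but whether before or after deposit is not given in the sources used here, and leaving out the 5% highest Scrublet scores per animal was an alternative.

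Libraries held 4059 to 8798 barcodes and 23429386 to 59958572 UMIs. Gene positions came from GENCODE vM21, matched by identifier without version for 55154 of 55336 features, and promoters from RefSeq. The tdTomato transcript counted toward no library size and was not tested. Expected counts were summed per animal and rounded. Genes were tested with edgeR 4.0.16 (quasi-likelihood, TMM, its default filter on low counts) in R 4.3.3, with genotype alone as in the authors' model, or with animal as a block between cell types. DESeq2 1.42.0 was an alternative. P-values were adjusted by Benjamini-Hochberg over all tested genes, with calls at an adjusted p under 0.05 and a log2 fold change over 0.2 between genotypes or 1 between cell types. Shares were compared by an exact two-sided permutation test in python 3.11.15 with scipy 1.17.1, and intervals are exact Clopper-Pearson at 95%. Intervals and floors cover counting error only. The code was tested on simulated data.

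A planned minimum of 10 nuclei per animal could not be used, because only 1 animal reached it, so all 12 animals entered. Named genes were, between cell types, the 10 called genes per direction with the largest fold change among those at 50 CPM or more in the higher type and with 1 direction in all 12 animals. Between genotypes they were the called genes, filled to 5 per direction by smallest p, besides Myt1l and the genes of the rule. Genes of the lists are named where they passed the test, with others at high levels. Some genes that these rules select are not reported here. The members, lists and named rules were chosen with earlier results of these data known.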

Additional observations from a re-analysis of the deposited data

Results flagged for a closer look

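Among 24 groups of 6 animals examined, 2 held a value set apart from the other 5 by more of the group's range than the critical share of 0.625 (Dixon's test), and chance flags about 1 in 20 groups. Ppfia2 stood at 182 CPM in the layer 6b nuclei of Het female 2, while the other Het animals ran from 618 to 849 CPM. Homer1 stood at 427 CPM in those of WT male 3, while the other WT animals ran from 221 to 261 CPM.

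The tdTomato transcript of the injected virus, which entered no comparison, was found in 51.5% of layer 6b nuclei, 12 of 27 in WT and 22 of 39 in Het animals. It was found in 46.1% of layer 6 CT and in 7.7% of oligodendrocyte nuclei, and after thinning to 3000 UMIs in 26.2% of layer 6b and 32.1% of layer 6 CT nuclei.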

How the results depend on the processing

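The difference in layer 6b share, 0.0451 percentage points higher in Het animals, reversed to -0.0124 with at most 6000 UMIs (12 nuclei), to -0.0087 with the limits of the paper (10 nuclei) and to -0.00925 with a marker sum of 2 from 1 gene or more, a rule chosen after seeing the data. Leaving out 1 animal gave 0.0154 to 0.085. The 1 of 770 genes called between genotypes in layer 6b nuclei became 2 of 15302 without a filter on low counts (Cobll1 and Epha6). It became 0 with the replicate block, the limits of the paper (60 genes tested) and the highest Scrublet scores left out. The count was also 0 with a marker sum of at least 5 or of at least 2, and 0 to 2 leaving out 1 animal. The replicate numbers were not shown to pair the animals (correlations from -0.136 to 0.378), and Lrrc4c had -1.41 (adjusted p = 0.14) with that block. Myt1l reversed to -0.01 at a marker sum of at least 5.

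Against layer 6 CT nuclei 290 of 2595 genes were called. Without a filter this became 1340 of 29879 (289 higher, 1051 lower, with the median of the 2595 shifted by -0.51). With at most 6000 UMIs, which left 12 layer 6b nuclei in 8 animals, it was 178 of 1181 (50 and 128). Leaving out 1 animal gave 285 to 395. The 462 of 3531 against layer 5 NP nuclei became 1445 of 28713 (221 and 1224, shift -0.44), 184 of 965 (49 and 135) and 450 to 484. The called share thus fell without a filter and rose with at most 6000 UMIs. With nuclei of 6000 to 12000 UMIs in both types, added after seeing the data, the counts were 309 and 406. Without a filter, the genotype by sex interaction gave 2 of 15302 genes. The layer 6 CT genotype comparison then gave 70 of 29657 in place of 37 of 7622 (5 to 41 leaving out 1 animal). All kept nuclei gave 47 of 45947 in place of 11 of 21627 (3 to 30 leaving out 1 animal), with 175 by DESeq2. The interaction with cell type stayed at 0 in the alternatives run. The causes were not tested. Of the values for named genes under the alternatives, 949 kept direction and side of the threshold, 12 for Lrrc4c lost the call, and Ctnnd2 with at most 6000 UMIs (-1.40) and Asic2 without WT female 1 (0.81) passed it. The genotype comparison rests on 2 to 10 nuclei per animal.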

Other observations

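Further genes were called between layer 6b and layer 6 CT nuclei, where 5.36% of all tested genes were higher. Ptn, the growth factor pleiotrophin, had a mean of 250 CPM in layer 6b and 34.7 CPM in layer 6 CT nuclei (log2 fold change 3.01, edgeR adjusted p = 1.73e-12). Of 18 immature neuron genes 4 were tested, and Gap43, a growth cone protein, was higher at 181 against 89.1 CPM (log2 fold change 1.12). Without the filter on low counts the Gap43 call ended (log2 fold change 0.61), and 0 of the 4 were higher.

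Of 42 neuromodulator receptors 7 were tested against layer 5 NP nuclei, where 4.45% of all genes were higher and 8.64% lower. Chrm3, a muscarinic receptor, had 1380 against 441 CPM (edgeR adjusted p = 2.71e-10), Oprm1 152 against 28.3 CPM (log2 fold change 2.18), and Htr1f, a serotonin receptor, 330 against 146 CPM (1.27). Without the filter on low counts the call of Htr1f ended, and 2 of the 7 were higher and 2 lower. Htr2c was lower at 40.3 against 165 CPM (-1.94), and Htr4 had 2 UMIs in layer 6b nuclei and a mean of 93.9 CPM in layer 5 NP nuclei. Htr2c and Htr4 were too sparse for the test against layer 6 CT nuclei. They thus passed the filter through layer 5 NP nuclei, and the count of 2 lower is no support for the layer 6b label. Of the 10 MYT1 family genes and partners, 3 were tested against layer 6 CT nuclei and none was called by edgeR.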
